A study of Mus musculus with 12 samples.

Results

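The genes described here carry out the handling of nicotinamide, the making of NAD and the breakdown of tryptophan in the liver. They are 10 of the 24475 genes in the deposited table, taken by symbol: Tdo2, Afmid, Kmo, Kynu, Haao, Acmsd, Qprt, Nadsyn1, Nampt and Nnmt. They were chosen with their difference between the genotypes already known, so that difference is given here as a description and supports nothing. Where one of them is said to be past the threshold of the fit over all genes, this serves only to set a count beside the share of all genes. The study asked how glucagon contributes to liver zonation in mice. Polyadenylated RNA of whole liver was sequenced in 6 libraries from wild-type mice (WT 1 to 6) and 6 from mice lacking Gcg (Gcg KO 7 to 12), all of them fed. Gcg encodes the precursor of glucagon, so the knockout also lacks the other peptides made from that precursor. Strain, sex, age and the kind of Gcg allele are not given. The labels also do not tie each library to its own mouse, so the spread that the p-values rest on may be technical.

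Tryptophan breakdown begins with Tdo2, tryptophan dioxygenase, and Afmid, a formamidase, which together give kynurenine. Kmo hydroxylates kynurenine, Kynu cleaves the product to hydroxyanthranilate, and Haao opens its ring to an unstable intermediate that stands at a fork. That intermediate closes by itself to quinolinate, which Qprt turns into a nucleotide that Nadsyn1 later converts to NAD, or it is decarboxylated by Acmsd and oxidised. NAD that is used by sirtuins and related enzymes leaves nicotinamide, which Nampt returns to NAD and Nnmt methylates with S-adenosylmethionine for excretion. The liver is a main site of NAD synthesis from tryptophan.

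In Gcg KO livers the level of Nnmt was far below that of WT livers. That of Acmsd was about 3.50-fold lower by the means, and that of Nampt was higher. The groups did not overlap for any of these. Kynu was also lower without overlap, by a smaller amount. Tdo2, Haao and Afmid had lower means with overlapping groups, as did Qprt by a smaller fold, and Kmo and Nadsyn1 lay close to WT. Levels are in RPKM, a read density corrected for the length of the gene and the depth of the library, so genes can be compared per length.

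Sequence upstream of the start was held in a RefSeq promoter table (GRCm38.p6), and windows of 7 of the 10 genes were used: Tdo2, Afmid, Kmo, Haao, Qprt, Nadsyn1 and Nampt. The 250 bases before the start given in that table were searched on both strands for TGACG, the short form of the cAMP response element (CREB, the factor that binds it, is a target of glucagon signalling through cAMP). The full element TGACGTCA, which contains TGACG, and the E-box CACGTG were searched as well. TGACG was found before Nampt and Nadsyn1, that is in 2 of the 7, and in 17.8% of the 32850 windows of that length searched. TGACGTCA was found in 0 of the 7 and in 1.55% of all windows, and CACGTG in 0 of the 7 and in 6.02%. Only the 2 windows with a match are shown, with the match in capitals. The genes behind them differed in direction, being higher (Nampt) and close to WT (Nadsyn1) in Gcg KO. The start in that table can differ from the end of the gene span printed with each gene: the Haao and Afmid windows lie inside the span, and that of Nadsyn1 overlaps it by 10 bases. The shown windows lie at chr12:32820085-32820334 (plus strand) and chr7:143822853-143823102 (minus strand).
Nampt: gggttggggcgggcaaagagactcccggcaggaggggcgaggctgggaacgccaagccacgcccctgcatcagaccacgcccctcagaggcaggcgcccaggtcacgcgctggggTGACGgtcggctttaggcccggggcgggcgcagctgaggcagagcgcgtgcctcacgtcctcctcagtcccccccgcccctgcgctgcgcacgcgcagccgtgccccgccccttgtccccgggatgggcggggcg
Nadsyn1: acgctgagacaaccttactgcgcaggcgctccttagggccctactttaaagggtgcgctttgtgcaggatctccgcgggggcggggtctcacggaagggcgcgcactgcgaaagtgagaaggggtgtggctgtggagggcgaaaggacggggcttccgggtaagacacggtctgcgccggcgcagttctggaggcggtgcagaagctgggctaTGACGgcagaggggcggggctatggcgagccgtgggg
The match begins 135 bases before the start of Nampt and 37 before that of Nadsyn1, each on the strand of the gene. A match says only that these letters are present.

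Facts of the whole series bear on what follows. The depth, estimated from the lowest steps of the values, was about 10300000 to 15000000 reads, and each library had a nonzero value for 15191 to 15564 genes. Gcg was listed at 0 in all 12 libraries, WT included, so it checked no label in liver. Hepatocyte markers (Alb, Apoa1, Ttr, Trf and Fgb, 5 of 5 found) summed to 43456 to 56945 RPKM in WT and 42311 to 53048 in Gcg KO, and 0 of the 5 passed limma, also at an unadjusted p under 0.05. The test used throughout was limma on log2(RPKM + 0.5) over 11347 genes, with Benjamini-Hochberg adjustment and a threshold of 0.05. Earlier results of these data set WT 6, Gcg KO 10 and Gcg KO 12 apart from the rest: Igfbp1, an IGF-binding protein of the liver, did not exceed 14.2 RPKM in any of these (lowest 6.22), whereas the other 9 ran from 159 to 738. The 7 neutrophil markers summed to 1.798 to 2.78 RPKM in the 3 and 17.7 to 66.8 in the other 9. Results are therefore also given without these 3 libraries. In whole liver, fewer cells of a type and less RNA per cell cannot be told apart.

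**Figure D1:**
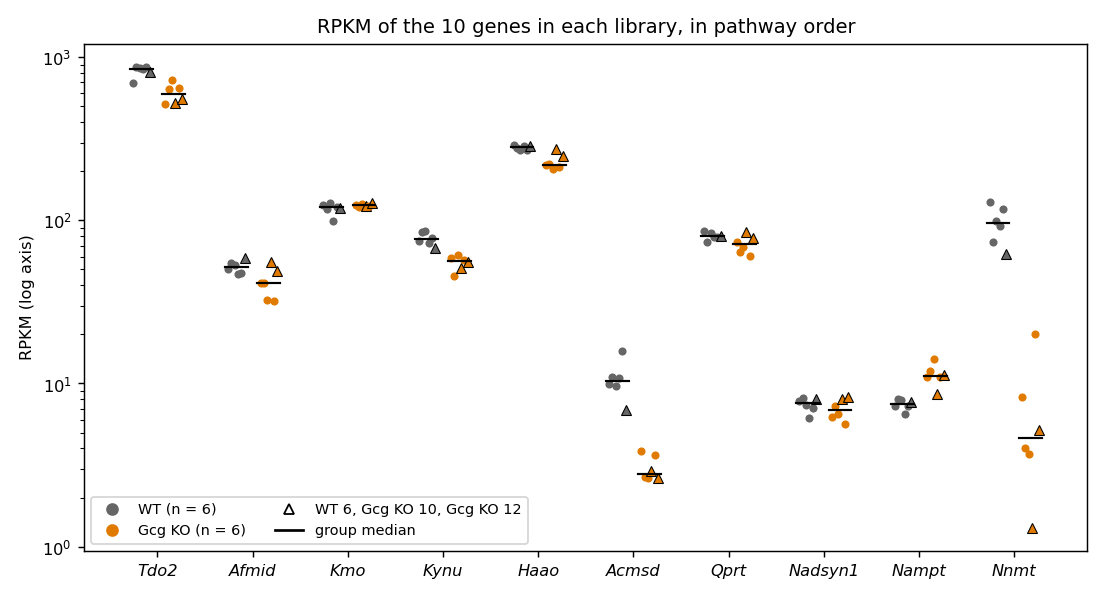
RPKM on a log axis of the 10 genes in each library, grey for WT and orange for Gcg KO, with the group median as a black line and WT 6, Gcg KO 10 and Gcg KO 12 as triangles. For Nnmt, Acmsd, Kynu and Nampt the groups do not overlap; for Afmid and Haao the Gcg KO triangles lie above the 4 other Gcg KO libraries.

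In WT livers the 10 genes spanned from 7.42 to 824 RPKM. Tdo2 was the highest, at 824 ± 68.3 RPKM (SD, n = 6), above 99.2% of the 11347 tested genes, followed by Haao (280 ± 8.40) and Kmo (118 ± 9.74). Nnmt (96.1 ± 25.8), Qprt (80.2 ± 4.02) and Kynu (77.1 ± 7.01) came next, and Afmid had 51.9 ± 4.72 RPKM. Acmsd (10.7 ± 2.96), Nampt (7.47 ± 0.578) and Nadsyn1 (7.42 ± 0.744) were the lowest. Tdo2 did not overlap Haao, nor Haao Kmo, nor Kynu Afmid, nor Afmid Acmsd, while the ranges of every other pair of neighbours in this order overlapped. Acmsd and Nnmt varied most between WT libraries, with SDs of 27.7% and 26.9% of the mean, and Haao least, with 3.0%. In Gcg KO livers Nnmt went from rank 4 to rank 8 of the 10 and Acmsd from 8 to 10.

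Over all tested genes 3.87% passed the threshold, 1.92% lower and 1.95% higher in Gcg KO. Of the 10 genes, all of which passed the filter on low values, 5 were past it lower (Nnmt, Acmsd, Kynu, Tdo2 and Haao) and 1 higher (Nampt). Since these genes were chosen on this contrast, nothing is read from that count. It also shifted with the libraries and scaling: Haao was past the threshold in 10 of 21 alternatives, Tdo2 was not past it after quantile normalization or without WT 6, Gcg KO 10 and Gcg KO 12, and Afmid was past it without these 3. The single libraries without which Haao was not past it were each of the 6 WT libraries, Gcg KO 7, Gcg KO 8, Gcg KO 9 and Gcg KO 11. The groups did not overlap for 4 of the 10, of which 3 were lower and 1 higher, and for 3.09% of all tested genes (1.5% lower and 1.6% higher). The median log2 fold change of the 10 was -0.31, against 0.01 for all tested genes. With the 3 libraries left out, 6 of the 10 and 2.65% of the 11284 genes tested there were past the threshold. The groups, then of 5 and 4, did not overlap for 7 of the 10 and for 7.25% of those genes; 6 of the 7 were lower, against 4.19%.

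Nnmt, nicotinamide N-methyltransferase (Entrez 18113, chromosome 9, 48538002 to 48607655, GRCm38), showed the widest difference. Its level ran from 62.1 to 130.1 RPKM in WT, with a median of 96.3, and from 1.30 to 20.1 RPKM in Gcg KO, with a median of 4.62. The highest Gcg KO library, Gcg KO 11, thus stood well under the lowest WT library, WT 6. The lowest value, in Gcg KO 10, came from about 19 reads on a transcript of 1043 bases, so counting error adds to its spread. The SD was 26.9% of the mean in WT and 95.1% in Gcg KO. The log2 fold change was -4.03 ± 0.44 (SE), a 16.3-fold lower level on the log2(RPKM + 0.5) scale and 13.5-fold by the means. It was -3.73 when the 3 libraries were left out.

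Nampt, the enzyme that salvages nicotinamide (Entrez 59027, chromosome 12, 32820335 to 32853369), differed in the other direction. It lay between 6.47 and 8.08 RPKM in WT (median 7.52) and between 8.62 and 14.1 in Gcg KO (median 11.2). Gcg KO 10 was the lowest of its group and the closest to WT, and Gcg KO 9 was the highest. The log2 fold change was 0.56 ± 0.10 (SE), and 0.65 without the 3 libraries. A noncoding gene, Gdap10, lies within Nampt and rose, from 0.492 ± 0.160 to 1.22 ± 0.273 RPKM (limma adjusted p = 0.0040). The libraries were strand-specific, but the use of strand in counting is not given, so reads of this gene and of Nampt cannot be told apart.

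Nnmt and Nampt act on the same substrate, and their levels exchanged order. In WT livers Nnmt was at 8.05 to 17.8 times the level of Nampt in the same library. In Gcg KO livers it was at 0.151 to 1.82 times that level, and Gcg KO 11 was the only Gcg KO library in which Nnmt remained above Nampt. On the log2 scale with the pseudocount the ratio was 3.56 ± 0.452 in WT and -1.03 ± 1.13 in Gcg KO (SD, n = 6 each).

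Acmsd, which takes the fork away from NAD (Entrez 266645, chromosome 1, 127729413 to 127767564), was lower throughout the Gcg KO group than in the lowest WT library. It ran from 6.84 to 15.9 RPKM in WT, with a median of 10.4, and from 2.62 to 3.84 RPKM in Gcg KO, with a median of 2.79. WT 6 was the lowest WT library and WT 5 the highest, and the 6 Gcg KO libraries lay close together. The log2 fold change was -1.63 ± 0.16 (SE), a 3.09-fold lower level on the log2(RPKM + 0.5) scale and 3.50-fold by the means. It was -1.69 without the 3 libraries. A noncoding gene, 2900009J06Rik, overlaps it and was too low to be tested.

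Qprt, which takes the other arm of the fork (Entrez 67375, chromosome 7, 127107770 to 127122029), lay between 74.0 and 85.8 RPKM in WT (median 79.7) and between 60.7 and 84.5 in Gcg KO (median 71.2). Its log2 fold change was -0.17 ± 0.08 (SE; 95% interval from -0.34 to just above 0). Gcg KO 10 and Gcg KO 12 were the highest Gcg KO libraries, inside the WT range, and without the 3 libraries the groups did not overlap (60.7 to 73.4 against 74.0 to 85.8 RPKM). The level of Acmsd was 0.0855 to 0.200 times that of Qprt in WT and 0.0334 to 0.0597 times in Gcg KO. The log2 ratio of Acmsd to Qprt was -2.89 ± 0.394 in WT and -4.35 ± 0.308 in Gcg KO, without overlap. Both arms had a lower mean in Gcg KO, and the difference was wider for Acmsd than for Qprt.

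**Figure D2:**
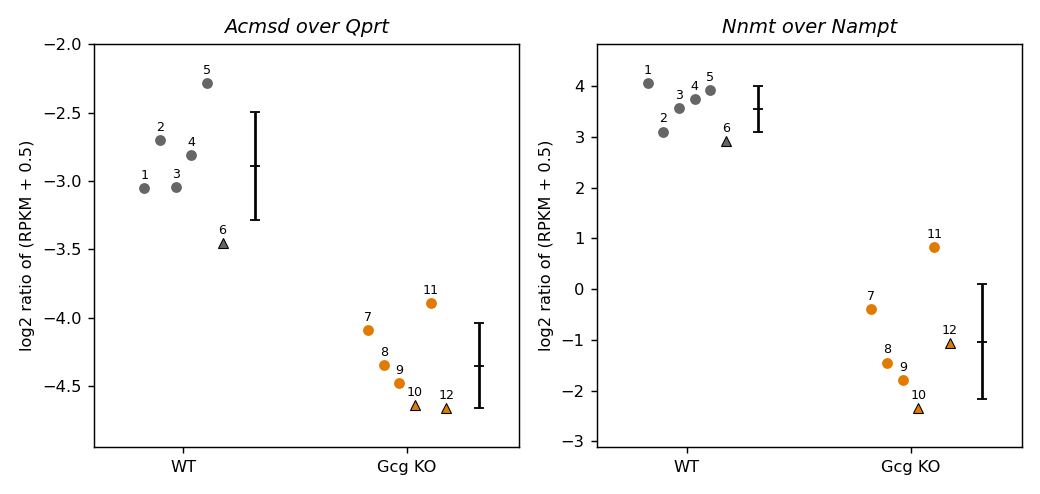
Log2 ratio of (RPKM + 0.5) of Acmsd to Qprt (left) and of Nnmt to Nampt (right) in each library, numbered, grey for WT and orange for Gcg KO, with WT 6, Gcg KO 10 and Gcg KO 12 as triangles, and mean ± SD as a black bar beside each group. The groups do not overlap in either ratio, and the Nnmt to Nampt ratio runs from -2.34 to 0.84 within Gcg KO.

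Of the steps above the fork, Kynu (kynureninase, Entrez 70789, chromosome 2, 43555258 to 43683048) was the only one whose groups did not overlap. It lay between 67.6 and 85.5 RPKM in WT (median 76.5) and between 45.8 and 61.3 RPKM in Gcg KO (median 56.3), a log2 fold change of -0.49 ± 0.08 (SE). WT 6 was the lowest WT library here too. The fold change of Kynu on that scale was -0.51 when the 3 libraries were left out.

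Tdo2, the entry step (Entrez 56720, chromosome 3, 81958412 to 81975728), ran from 691 to 871 RPKM in WT (median 851) and from 517 to 721 RPKM in Gcg KO (median 597). The groups met only because WT 1, at 691, was lower than Gcg KO 9, at 721; the other 5 WT libraries were at 813 or more. The log2 fold change was -0.46 ± 0.09 (SE) and -0.39 without the 3 libraries.

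Haao, which makes the intermediate at the fork (Entrez 107766, chromosome 17, 83831348 to 83848981), was held closely in WT, between 270 and 292 RPKM (median 280.8). In Gcg KO it ran from 206 to 273 RPKM (median 220). Gcg KO 10 alone, at 273, entered the WT range, and Gcg KO 12 was next, at 248. The log2 fold change was -0.29 ± 0.07 (SE). With the 3 libraries left out its log2 fold change was -0.38 and the ranges separated, all 4 Gcg KO values being at 221 RPKM or less.

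Afmid, the formamidase (Entrez 71562, chromosome 11, 117825503 to 117839908), ran from 46.6 to 59.1 RPKM in WT (median 51.9) and from 32.1 to 55.6 RPKM in Gcg KO (median 41.4). Gcg KO 10 and Gcg KO 12 were again its highest Gcg KO libraries and WT 6 its highest WT library. The log2 fold change was -0.32 ± 0.13 (SE). When the 3 libraries were left out it was -0.45 and the ranges separated (46.6 to 54.7 against 32.1 to 41.6 RPKM). Tk1, thymidine kinase, overlaps the start of Afmid in the annotation; its level was 8.89 ± 0.674 RPKM in WT against 7.24 ± 1.89 in Gcg KO (limma adjusted p = 0.267; 0.0128 without the 3 libraries).

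Kmo, kynurenine monooxygenase (Entrez 98256, chromosome 1, 175632193 to 175660853), sat between these steps and did not share their direction. It lay between 99.8 and 128 RPKM in WT (median 120) and between 120.1 and 127.7 RPKM in Gcg KO (median 124), with a log2 fold change of 0.08 ± 0.06 (SE; 95% interval -0.06 to 0.21). Apart from WT 4, the lowest, the 12 libraries held to a narrow range. Nadsyn1, NAD synthetase (Entrez 78914, chromosome 7, 143795589 to 143822862), lay between 6.14 and 8.09 RPKM in WT (median 7.61) and between 5.65 and 8.25 in Gcg KO (median 6.88). Its log2 fold change was -0.09 ± 0.10 (SE; 95% interval -0.30 to 0.12), so neither gene showed a difference beyond the spread of its libraries.

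Within each genotype the 10 genes did not vary as a block. Deviations of the log2 values from the genotype mean were compared across the 12 libraries for all 45 pairs, as a description. Pearson's r was highest for Haao and Afmid (0.84), Nadsyn1 and Afmid (0.83) and Qprt and Haao (0.77), and lowest for Nampt and Haao (-0.75). Leaving out the 3 libraries, these 4 values were 0.39, 0.64, 0.15 and -0.61 over 9 libraries. Nadsyn1, Qprt, Haao and Afmid were all above their group mean in both Gcg KO 10 and Gcg KO 12, by 0.12 to 0.43 on the log2 scale. Nnmt was 1.67 below its group mean in Gcg KO 10 and 0.007 below it in Gcg KO 12. In WT 6, which shares the low Igfbp1 and neutrophil marker levels of these libraries, Nadsyn1 and Afmid were 0.11 and 0.19 above the WT mean, Haao was 0.02 above it and Qprt 0.004 below it. The part of those markers was not tested.

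**Figure D3:**
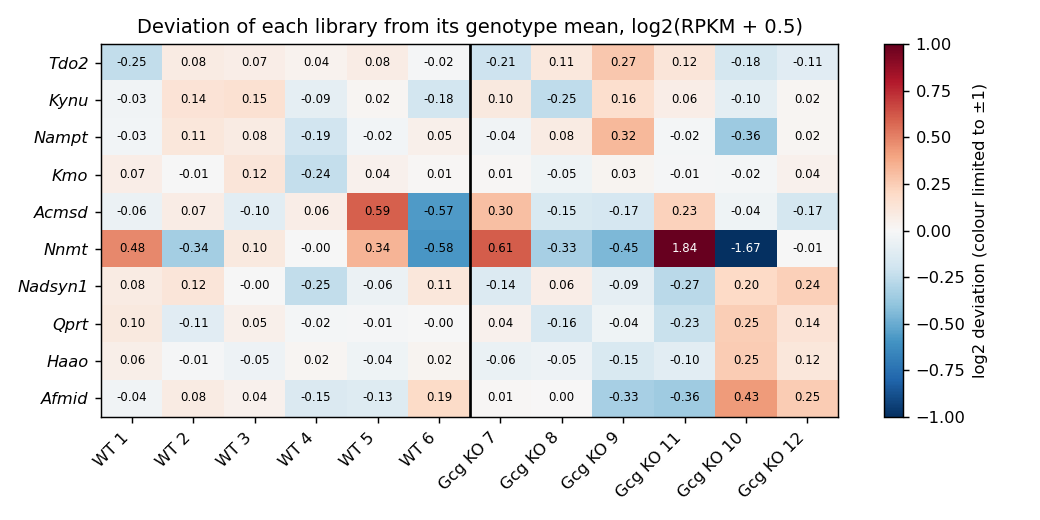
Deviation of log2(RPKM + 0.5) of each of the 10 genes from its genotype mean in each library, red above and blue below, with WT left of the black line and WT 6, Gcg KO 10 and Gcg KO 12 at the right of their groups. Gcg KO 10 and Gcg KO 12 are above the mean for Nadsyn1, Qprt, Haao and Afmid, and Nnmt spans from -1.67 to 1.84 within Gcg KO.

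The methyl group that Nnmt uses comes from S-adenosylmethionine. Of the 4 genes listed for its supply and use 2 fell, as did 1.92% of all tested genes. The list was made with earlier results of these data known, so the count is a description only. Mat1a, the liver enzyme that makes S-adenosylmethionine, fell from 677 ± 105 to 342 ± 56.7 RPKM, a log2 fold change of -0.99 ± 0.13 (SE; limma adjusted p = 7.6e-04). The WT values ran from 474 to 764 RPKM (median 711) and the Gcg KO values from 254 to 404 (median 350), without overlap. Gnmt, which spends S-adenosylmethionine on glycine, fell from 1064 ± 56.4 to 579 ± 56.2 RPKM (-0.88 ± 0.07, limma adjusted p = 1.0e-05). Its groups did not overlap either, with 988 RPKM as the lowest WT value and 668 as the highest in Gcg KO. Ahcy, which clears the product of methylation, had 441 ± 46.0 and 393 ± 25.9 RPKM (limma adjusted p = 0.335), and Mat2a had 23.1 ± 5.31 and 22.6 ± 2.05 (limma adjusted p = 0.984). The median log2 fold change of the 4 was -0.52.

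Aldehyde oxidases oxidise the methylnicotinamide that Nnmt makes. Of the 2 listed 1 rose, as did 1.95% of all tested genes. This list too was made with earlier results of these data known, so nothing is read from the count. Aox3 rose from 278 ± 29.4 to 417 ± 65.5 RPKM, a log2 fold change of 0.57 ± 0.11 (SE; limma adjusted p = 0.0073). Its WT libraries lay between 225 and 311 RPKM and its Gcg KO libraries between 337 and 497, without overlap. Aox1 was at 30.6 ± 3.29 RPKM in WT against 42.6 ± 9.04 in Gcg KO (0.45 ± 0.13, limma adjusted p = 0.0700) and passed the threshold without Gcg KO 11 (limma adjusted p = 0.0219) and with array weights (limma adjusted p = 0.0298).

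In all, 50 other genes of NAD and tryptophan metabolism were listed by role, with earlier results of these data known, and 44 were tested. Of these 1 rose (Aox3), 2 fell (Mat1a and Gnmt) and 41 did not pass, where 3.87% of all tested genes did. Their median log2 fold change was -0.04, against 0.01 for all tested genes. Pnp, the highest of the 7 tested genes of NAD synthesis and salvage, was at 71.1 ± 6.76 RPKM in WT against 66.4 ± 5.51 in Gcg KO (limma adjusted p = 0.608), and 0 of the 7 passed limma. In that role Nmnat1 and Nadk had an unadjusted p under 0.05.

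Beside the main kynurenine steps, 0 of 5 tested genes of tryptophan entry and side branches passed limma, also at an unadjusted p under 0.05. Got2, an aminotransferase that also acts on kynurenine, was the highest of them, with 203 ± 12.1 and 208 ± 9.13 RPKM. Ido2 was present (27.0 ± 3.25 RPKM in WT), whereas Ido1, the tryptophan dioxygenase of immune cells, was at most 0.0565 RPKM in any library and not tested. Below Acmsd, 0 of 4 genes of the oxidative arm passed limma, and 1 (Dhtkd1, which works on oxoadipate) had an unadjusted p under 0.05. Hrsp12, a deaminase now called Rida, was the highest of the 4 with 455 ± 46.1 and 485 ± 83.6 RPKM (limma adjusted p = 0.823). Dhtkd1 was at 24.5 ± 5.78 RPKM in WT against 17.4 ± 4.19 in Gcg KO (limma adjusted p = 0.183).

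Among the enzymes that consume or convert NAD, 0 of 12 tested genes passed limma, and Sirt2 and Cd38 had an unadjusted p under 0.05. Sirt3, the mitochondrial deacetylase, was the highest, with 35.2 ± 2.88 RPKM in WT and 36.9 ± 5.69 in Gcg KO. Cd38, an NAD glycohydrolase, had 4.05 ± 0.639 and 5.10 ± 0.366 RPKM (limma adjusted p = 0.0879; 0.0327 without WT 5). Of 5 tested transporters 0 passed limma. Slc16a10, which carries aromatic amino acids, had 20.6 ± 3.40 and 18.7 ± 1.94 RPKM. Slc25a51, the mitochondrial NAD carrier, was at 23.6 ± 7.34 RPKM in WT against 11.7 ± 5.42 in Gcg KO (limma adjusted p = 0.0885), the only one with an unadjusted p under 0.05. WT 6, at 10.1, was its lowest WT library and Gcg KO 12, at 5.89, its lowest Gcg KO library, and without the 3 libraries it passed (log2 fold change -0.88, limma adjusted p = 0.0237). Slc25a51 also passed without WT 6 alone (limma adjusted p = 0.0181) or Gcg KO 7 alone (0.0371). Of the other fates of tryptophan, 0 of 5 tested genes passed limma, and Ddc and Maoa had an unadjusted p under 0.05. Inmt, a methyltransferase of indole amines, was the highest there, with 233 ± 73.1 and 326 ± 132 RPKM, and Maoa passed without Gcg KO 11 (limma adjusted p = 0.0205). Tph1, which starts serotonin synthesis, was listed at 0 in all 12 libraries.

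**Figure D4:**
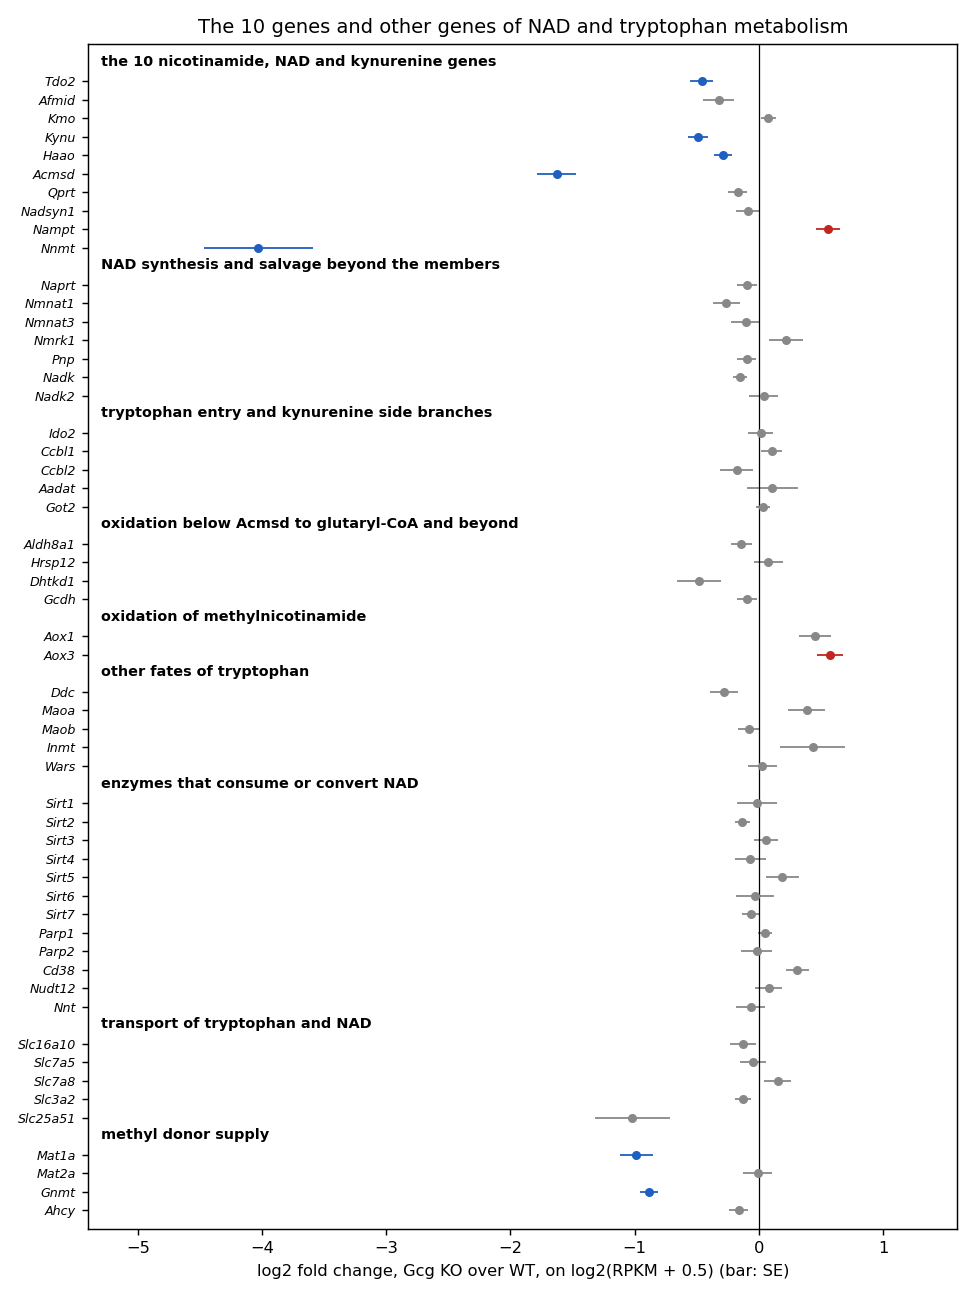
Log2 fold change, Gcg KO over WT, with its SE as a bar, of the 10 genes in pathway order (top) and of the 44 other tested genes by role. Blue and red points passed the limma threshold lower and higher and grey points did not. The top block was chosen on this contrast, and the other lists were made with earlier results of these data known. Among the others Mat1a and Gnmt are blue and Aox3 is red.

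Clock genes and genes responsive to glucocorticoids or PPAR-alpha were set beside the 10 genes, in lists also made with earlier results of these data known. Nampt is a target of the circadian clock, and of 14 tested clock genes 0 passed limma, with a median log2 fold change of -0.05; Arntl alone had an unadjusted p under 0.05. Tdo2 is induced by glucocorticoids, and of 10 genes of a glucocorticoid-responsive list 0 passed limma, with a median of -0.56. In that list Fkbp5, Tat, Mt1 and Mt2 had an unadjusted p under 0.05, and Fkbp5 was positive while the other 3 were negative. Mt1 and Mt2 passed without WT 6 (limma adjusted p = 0.0388 and 0.0395) but not without the 3 libraries (limma adjusted p = 0.0999 and 0.0865). Tat passed when the 3 libraries were left out (log2 fold change -0.74, limma adjusted p = 0.0015). Acmsd is known to be repressed by agonists of PPAR-alpha, the fatty acid sensor of the liver. Of 12 genes of a PPAR-alpha-responsive list 1 rose, 0 fell and 11 did not pass, with a median log2 fold change of 0.34. The 1 that rose was Vnn1, a pantetheinase, from 6.88 ± 6.01 to 21.4 ± 5.07 RPKM (limma adjusted p = 0.0179), with WT 6, at 17.7, inside the Gcg KO range. Fgf21, named after its values were seen, had 0.39 ± 0.234 and 1.46 ± 0.852 RPKM (limma adjusted p = 0.0552; 0.0031 without the 3 libraries). Cpt1a and Pdk4, named in the same way, also had an unadjusted p under 0.05, with log2 fold changes of -0.28 ± 0.09 and 0.61 ± 0.28 (SE). Cpt1a passed as lower without Gcg KO 11 (limma adjusted p = 0.0175) and with array weights (0.0388). The part of the clock, glucocorticoids and PPAR-alpha in the levels of the 10 genes was not tested.

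Markers of other cells were read in the same fit. Of 7 tested Kupffer cell markers, 6 stellate cell markers, 2 cholangiocyte markers and 4 neutrophil markers 0 passed limma. In the Kupffer cell list 0 genes had an unadjusted p under 0.05, in the stellate cell list 1 (Col3a1), in the cholangiocyte list 1 (Sox9) and in the neutrophil list 0. The 6 T and NK cell markers summed to 1.04 to 2.37 RPKM in WT and 0.612 to 1.35 in Gcg KO, too low to be tested singly. Among 6 endothelial markers 1 rose, Lyve1 (limma adjusted p = 0.0125), and Clec4g also had an unadjusted p under 0.05 (log2 fold change 0.31, limma adjusted p = 0.177). That list summed to 55.7 to 73.5 RPKM in WT and 59.8 to 94.2 in Gcg KO. In the adipocyte list Cfd rose (limma adjusted p = 0.000785). The list summed to 0.0862 to 0.736 RPKM in WT and 2.45 to 28.0 in Gcg KO, where Cfd alone ran from 2.45 to 27.9. Lep was at 0 throughout, Adipoq at most 0.138 and Plin1 at most 0.0458, all too low to be tested. Among 4 pancreatic acinar markers Cela1 fell (limma adjusted p = 0.0179; 0.106 without the 3 libraries) and Cpa1 and Pnlip were at 0 throughout. Among 3 erythroid markers Hbb-bs, of a multigene family whose reads may be split, fell (limma adjusted p = 0.0438; 0.206 without the 3 libraries). The part of these in the levels of the 10 genes was not tested.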

How the data were processed

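The deposited values are RPKM, made by the authors from strand-specific libraries of whole liver, per the labels' protocols, and cover 24475 genes in 12 libraries. The table's name and its values gave the unit. CASAVA 1.8.2, FastQC and the build GRCm38 are credited to the submitters' processing notes; aligner, counter and annotation: not given in the sources used here. Depth was estimated from the step that 1 read makes in genes with 1 GENCODE M21 transcript (104 to 146 genes per library within 3% of it); no count test was run. The test took genes whose mean RPKM reached 0.5, on log2(RPKM + 0.5), which understates the change of low genes, with limma 3.58.1 (R 4.3.3; mean-variance trend, two-sided, no covariate). Fold changes are Gcg KO over WT.

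The 10 genes and all lists were chosen with earlier results of these data known. Named genes were the 10, other listed genes past the threshold, the highest of each role, the 5 most like Nnmt, and Igfbp1; others were chosen after their values were seen. Of the symbols, 5 (Kyat1, Kyat3, Rida, Wars1 and Tf) were matched through RefSeq synonyms. Alternatives changed the pseudocount, filter, scaling, variance model, sample weights and libraries. In simulated data 94% of 2-fold changes (47 of 50) and 74% of 1.5-fold changes were recovered among 11267 genes. The groups share no replicate numbers, and 0 pairs of libraries were identical. The upstream windows of 3 of the 10 genes and some single genes of the PPAR-alpha-responsive list are not reported here.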

Additional observations from a re-analysis of the deposited data

Results flagged for a closer look

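Of 28 groups of 6 libraries (14 genes in 2 genotypes), 3 held a library that lay far from the other 5 by Dixon's test on the log2 scale, which chance gives in about 1 in 20 groups. Tdo2 in WT 1 was at 691 RPKM, and the nearest library, WT 6, was at 813. Kmo in WT 4 was at 99.8 RPKM, and the nearest, WT 2, was at 117. Mat1a in WT 6 was at 474 RPKM, and the nearest, WT 1, was at 672.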

How the results depend on the processing

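Each result was recomputed under 21 alternatives. As a description, the log2 fold change ranged from -4.40 to -3.70 for Nnmt, from -1.75 to -1.50 for Acmsd, from 0.49 to 0.65 for Nampt and from -0.53 to -0.44 for Kynu. Among the 44 other tested genes of NAD and tryptophan metabolism and the context lists, Mat1a, Gnmt, Aox3 and Vnn1 stayed past the threshold in all 21. Over all genes the rises numbered 136 (without WT 3) to 261 (without Gcg KO 11) with 1 library left out, against 221, and 142 without Gcg KO 9; the falls numbered 141 (without WT 3) to 210, against 218. Without the 3 libraries 128 rose. Of the 10 genes 5 to 6 passed with 1 library left out, and 4 after quantile normalization. Of the 44 others 3 to 5 passed, with 5 without Gcg KO 11 (Aox1 and Maoa added). Of the context lists 1 to 3 passed with 1 library left out: 3 without WT 6 (Mt1 and Mt2 added), and 2 without Gcg KO 10 or Gcg KO 12 (Fgf21 added) or Gcg KO 11 (Cpt1a added, as lower). They gave 3 with array weights and 3 without the 3 libraries. The difference in log2 ratio ranged from -1.57 to -1.34 for Acmsd to Qprt and from -4.96 to -4.33 for Nnmt to Nampt with 1 library left out. Of the 5 genes most like Nnmt, 1 was among the top 5 by Spearman's rho and 0 without the 3 libraries; the cause was not tested. No paired analysis was possible because the groups share no replicate numbers. Scaling moved the median of all genes by less than 0.1 on the log2 scale. The depth limits Nnmt in Gcg KO 10 (about 19 reads) and Acmsd in Gcg KO (73 reads or more).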

Other observations

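The genes whose deviations from the genotype mean were most like those of Nnmt, among 9799 compared over 12 libraries, were Fxyd5 (r = 0.90), Myadm (0.90), BC021767 (0.90), Rarres1 (0.89) and Arhgef26 (0.88); over the 9 libraries without WT 6, Gcg KO 10 and Gcg KO 12 their r was 0.88, 0.91, 0.90, 0.86 and 0.93. With so many genes compared, values of this size are a description only, and they share library and depth. Nnmt deviated most in Gcg KO 10 (-1.67) and Gcg KO 11 (1.84), so these libraries weigh most in its r over 12 libraries. Rarres1 was the only one of the 5 past the limma threshold, and in the direction opposite to Nnmt: it rose from 54.9 ± 5.13 to 110.5 ± 25.6 RPKM (adjusted p = 9.4e-04).

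The nearest tested gene on each side of the 10 genes was looked up. Of these 20, 2 passed the limma threshold, where 3.87% of all tested genes did. They were Gdap10 and Fh1, next to Kmo, both named after their values were seen. Gdap10 lies within Nampt and its reads cannot be told apart from those of Nampt, so nothing is read from the count. Fh1, fumarate hydratase, lies 6558 bases from Kmo and fell from 101 ± 10.6 to 59.0 ± 3.94 RPKM (adjusted p = 5.7e-05), beside a Kmo level of 118 and 124 RPKM. On the side away from an unnamed gene model, Nnmt's neighbour was Zbtb16, 44142 bases away, with 3.41 ± 1.24 and 6.30 ± 5.15 RPKM (limma adjusted p = 0.552). Acmsd's closest was Ccnt2, 6600 bases away, with 5.34 ± 0.688 and 5.49 ± 0.611 RPKM (limma adjusted p = 0.908).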
